A study of Mus musculus with 6 samples.

Results

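C1q-high tumor macrophages were described in CT26 tumors of mice, from single-cell mRNA-seq. CT26 is a mouse colorectal carcinoma cell line, grown here in Balb/c females. The cells were chosen by their transcripts. A cell had to carry the authors' label Myeloid, at least 0.001 of its unique molecular identifiers (UMIs, 1 per captured transcript) had to come from *C1qa*, *C1qb* and *C1qc* together, and it had to hold fewer than 10 UMIs of the mast cell protease gene *Mcpt4*. This gave 706 of 33961 cells (2.079%, exact 95% binomial interval 1.93–2.236%), or 26.34% of the 2680 Myeloid cells. The other Myeloid cells were 1723 cells below the C1q limit, called C1q-low Myeloid cells here, and 251 cells with 10 or more *Mcpt4* UMIs, of which 5 reached the C1q limit. Intervals cover counting error only.

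C1q is the recognition part of the classical complement pathway, built from the A, B and C chains. Most plasma proteins of complement come from the liver, whereas C1q is made mainly by macrophages and dendritic cells, and C1q transcripts are a common mark of tissue and tumor macrophages. Such macrophages take up dead cells and debris through scavenger receptors, digest them in lysosomes, and export the cholesterol they take in, partly on apolipoprotein E. Monocytes that enter a tumor from blood carry other transcripts, such as *Ly6c2*, and can become macrophages there.

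The labels of the series list 6 tumors, 2 each for vehicle and for 2 doses, low and high, of a PD-1 GITR-L bispecific antibody, which joins an antibody to PD-1 with the ligand of the costimulatory receptor GITR. All 3 groups carried the same transplanted line, and tumors were taken after treatment and enriched on beads for CD45, a surface protein of leukocytes. The labels give 30 mg/kg for the high dose, and for the low dose 10 mg/kg in the protocol but 30 mg/kg in the treatment field, and the text of the study gives another high dose. The table names 4 libraries, M1, M2, M5 and M6, that could not be matched to tumors or treatments. No treatment comparison was therefore made, and libraries are given as values, not as replicates.

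Library M1 held 213 C1q-high macrophages, M2 held 206, M5 held 146 and M6 held 141. These were 2.069%, 2.304%, 2.039% and 1.863% of all cells of the library, and the exact intervals of the 4 shares overlapped. Of the Myeloid cells of M1 they made up 36.79%, of those of M2 34.62%, of those of M5 21.6% and of those of M6 16.99%, where the intervals of M1 and M2 (32.85–40.86% and 30.8–38.6%) lay above those of M5 and M6 (18.55–24.89% and 14.49–19.72%). The C1q-low Myeloid cells numbered 305, 336, 458 and 624 in the same order. Of all 33961 cells, 15687 carried the label Stroma, so the shares of all cells are not shares of leukocytes. Depth differed as well: the median C1q-high macrophage held 13522, 7312, 14290 and 22060 UMIs in the same order, within a range of 1368 to 115662 over all members, and the median C1q-low cell held 7781.5 to 8672.5 UMIs. Over all cells, 111 barcodes occurred in more than 1 library. No barcode was shared among the C1q-high macrophages, and 7 of theirs occurred in another library under some label.

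Transcripts of other cells ran with depth. Of the 706 cells, 304 (43.06%) held 2 or more UMIs of CD3 genes (*Cd3d*, *Cd3e* and *Cd3g*, the T cell receptor complex), of NK cell receptor genes (*Ncr1*, *Klrb1c*) or of B cell receptor genes (*Cd79a*, *Cd79b*), called lymphocyte UMIs here. The share was 4.382% of 251 cells with up to 5000 UMIs, 33.7% of 184 cells above that and up to 20000 UMIs, and 85.24% of 271 deeper cells. *Cd3g* had 15.76, 107.6 and 281.3 CPM (UMIs of the gene scaled to 1000000 UMIs summed over the cells) in these depth classes, against 1614 CPM in cells labelled T cell EFF. Among C1q-low Myeloid cells 30.12% held lymphocyte UMIs, and among cells labelled Stroma, whose median depth was 40692 UMIs, 4.552% did. The neutrophil genes *S100a8* and *S100a9* ran the other way, with 1327 and 2778 CPM in the shallow class and 133.7 and 273.5 CPM in the deep class, whereas *C1qa* stood at 2796, 3495 and 2608 CPM. The part of doublets and of free RNA in these values was not tested. The 402 C1q-high macrophages without lymphocyte UMIs, whose median depth was 3693.5 UMIs, are given beside the results they bear on.

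**Figure D1:**
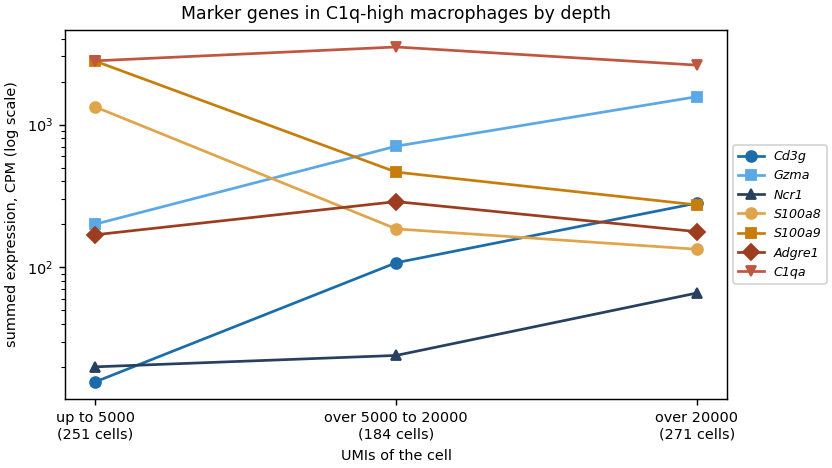
Summed expression in CPM on a log scale (y axis) of 7 marker genes in C1q-high macrophages of 3 depth classes (x axis, UMIs of the cell), each point a sum over all cells of the class. *Cd3g* went from 15.76 to 281.3 CPM and *Gzma* from 200.6 to 1568 CPM from the shallow to the deep class, *S100a9* went from 2778 to 273.5 CPM, and *C1qa* stayed between 2608 and 3495 CPM.

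Markers of macrophages were present in every library, shown here by some of the 14 listed genes of macrophage identity. Against C1q-low Myeloid cells only *Adgre1* of that list was called, as given below. *Lyz2* (lysozyme) had 6946, 7796, 8438 and 7134 CPM in M1, M2, M5 and M6, *Csf1r* (the receptor of the macrophage growth factor CSF1) had 178.2, 169.9, 148.9 and 152 CPM, and *Adgre1* (F4/80) had 180.7, 173.4, 281.7 and 158.2 CPM. None of the T cell, NK cell or dendritic cell markers was at 0 over all members. The 7 T cell markers summed to 691.8 to 1062 CPM over the libraries, against 5890 CPM in T cell EFF, the 5 NK cell markers to 1219 to 2511 CPM, against 17810 CPM in NK cells, and the 8 dendritic cell markers to 73.88 to 176 CPM, against 1202 CPM in cells labelled DC. In the cells without lymphocyte UMIs those sums over all libraries were 31.64, 181.1 and 29.66 CPM, the T and NK cell sums partly by the choice of these cells. The 6 neutrophil markers summed to 366.6 to 957.6 CPM over the libraries, and to 1200 CPM in the cells without lymphocyte UMIs against 505.5 CPM in those with them, and 2 of 8 mast cell or basophil markers were at 0.

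The 3 chains are neighbours on mouse chromosome 4. In GRCm38 with the GENCODE annotation, *C1qb* lies at chr4:136880129-136886187, *C1qc* at chr4:136889804-136893065 and *C1qa* at chr4:136895917-136898803, all on the minus strand. These 3 genes selected the cells, and their levels are a description only. *C1qa* had 3236, 2902, 2790 and 2109 CPM in M1, M2, M5 and M6, *C1qb* had 2235, 2136, 2075 and 1542 CPM, and *C1qc* had 1881, 1672, 1682 and 1203 CPM. The lowest value of each chain was in M6. In C1q-low Myeloid cells they summed to 38.06, 30.22 and 25.74 CPM over the libraries, beside 31.98, 25.33 and 19.62 CPM in NK cells, which should lack C1q. The rule kept the C1q-low cells under the limit, whereas 59 NK cells at or above it stayed in, so these levels do not compare like with like. After every cell was thinned to 2000 UMIs, with 60 shallower C1q-high macrophages left out, 92.57%, 86.84% and 85.76% of the remaining 646 cells held a UMI of *C1qa*, *C1qb* and *C1qc*, against 4.789%, 4.078% and 3.129% of 4218 NK cells. Of 1656 thinned C1q-low cells, 7.065%, 6.099% and 5.374% did.

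The bases upstream of the start sites of *C1qb* and *C1qc* are shown because both genes carry the choice of the cells, and those of *Ccl12* and *Ccl8* below because these chemokine genes stood highest above the C1q-low cells in their list. Capitals mark GAGGAA on either strand, a core of the sites of the myeloid factor PU.1. The sequences are from RefSeq (GRCm38.p6), read 5′ to 3′ on the gene's strand, without transcribed bases. The window of *C1qb* is chr4:136886201-136886450 and that of *C1qc*, cut to the 99 bases before the GENCODE start, chr4:136893066-136893164.

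C1qb: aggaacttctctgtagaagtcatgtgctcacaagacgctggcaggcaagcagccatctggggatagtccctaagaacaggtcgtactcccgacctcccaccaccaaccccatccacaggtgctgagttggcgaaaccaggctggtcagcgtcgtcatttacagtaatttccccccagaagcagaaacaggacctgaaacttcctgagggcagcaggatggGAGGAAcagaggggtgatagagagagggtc

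C1qc: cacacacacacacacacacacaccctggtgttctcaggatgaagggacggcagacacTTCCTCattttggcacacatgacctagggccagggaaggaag

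Each held the motif once. Of 32851 mouse promoter windows of 250 bases, 23.3% held it. TGANTCA, the site of AP-1 factors (6.75% of windows), was found in neither. A match is a string of letters, not a shown binding site. *C1qa* is named only.

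The C1q share of the cells formed a broad upper range rather than a narrow peak. Its median was 5224 CPM per cell, with quartiles of 2528 and 9970 CPM and a highest value of 34940 CPM. By library the medians were 6620, 5538, 5003 and 3551 CPM in M1, M2, M5 and M6. The limit did not fall in an empty gap: 19 cells lay just inside it (1002 to 1088 CPM, median 3 C1q UMIs) and 13 cells just outside (911.6 to 995.4 CPM, also median 3). The fewest C1q UMIs in a C1q-high macrophage were 2, and 93 cells held fewer than 10. Of the C1q-low cells, 1065 held none.

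**Figure D2:**
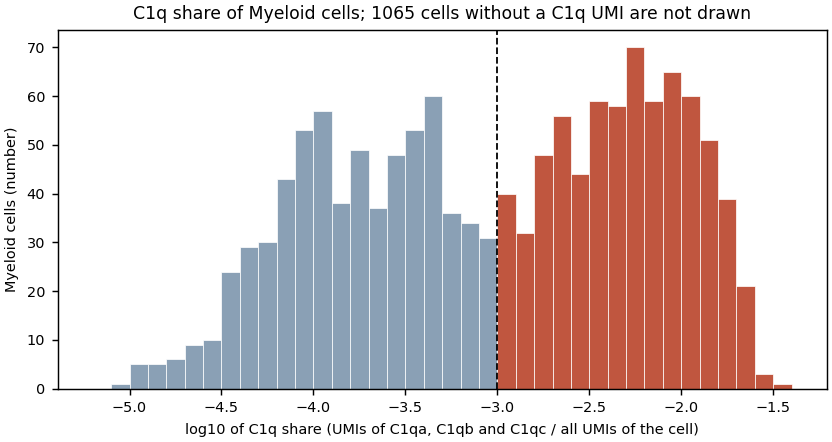
Number of Myeloid cells (y axis) by the log10 of the share of their UMIs that came from the 3 C1q genes (x axis), with the limit of 0.001 as a dashed line. The 706 C1q-high macrophages lie to the right, cells occur on both sides of the limit without a gap, and 1065 cells without a C1q UMI are not drawn.

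*Apoe*, the fourth gene that marks these cells, was not part of the rule. It encodes apolipoprotein E, which carries cholesterol out of macrophages. It had 1567, 1793, 2113 and 971.7 CPM in the C1q-high macrophages of M1, M2, M5 and M6, and 789.3, 610.4, 1044 and 490.2 CPM in the C1q-low cells. Within each library the C1q-high cells were higher, by 1.98- to 2.93-fold, although the C1q-low cells of M5 exceeded the C1q-high cells of M6. The smallest of these ratios was under the limit of 2-fold used below, so *Apoe* was not called. Dendritic cells had 39.6 to 187 CPM. After thinning, 65.63% (61.83–69.3%) of C1q-high macrophages held an *Apoe* UMI, against 33.76% of 1656 C1q-low cells and 4.03% of NK cells. These shares were pooled over libraries. M6, where *Apoe* was lowest in both groups, held 624 of the C1q-low cells but 141 of the C1q-high macrophages. The part of this mix in the gap was not tested.

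For a comparison across all genes, each group's counts were added up within a library, and a gene was called when its CPM, with 1 CPM added, differed by at least 2-fold in the same direction in all 4 libraries. Genes averaging under 10 CPM over both groups were left out, so the called genes include some that passed this filter only through the group where they were high. The groups were set by C1q in these same cells, so the contrasts are descriptions, with no test. Against C1q-low Myeloid cells, 51 of 7771 genes (0.656%) were called higher and 59 (0.759%) lower. Leaving out all cells with lymphocyte UMIs gave 62 higher and 113 lower of 7505 genes, and 43 of the higher and 43 of the lower genes were called both ways. Of 261 genes on 19 lists of macrophage function and of other roles, such as monocyte, neutrophil and cell cycle genes, 226 passed the filter. Beyond the C1q chains, 14 of 223 were called higher (6.28%) and 18 lower (8.07%), and the others in neither direction. Over all genes the median log2 ratio was 0.060. Separately from the 2-fold limit, all 4 library values of the C1q-high cells lay above all 4 of the C1q-low cells for 12.6% of the 7771 genes and below them for 9.72%, which are the shares to set beside each pair of groups said not to overlap. Among the 223 listed genes the shares were 19.7% and 21.1%. The lists were chosen with earlier results of these data known, so their larger shares are no result of their own. The counts of each list below stand beside the 0.656% and 0.759% of all genes.

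**Figure D3:**
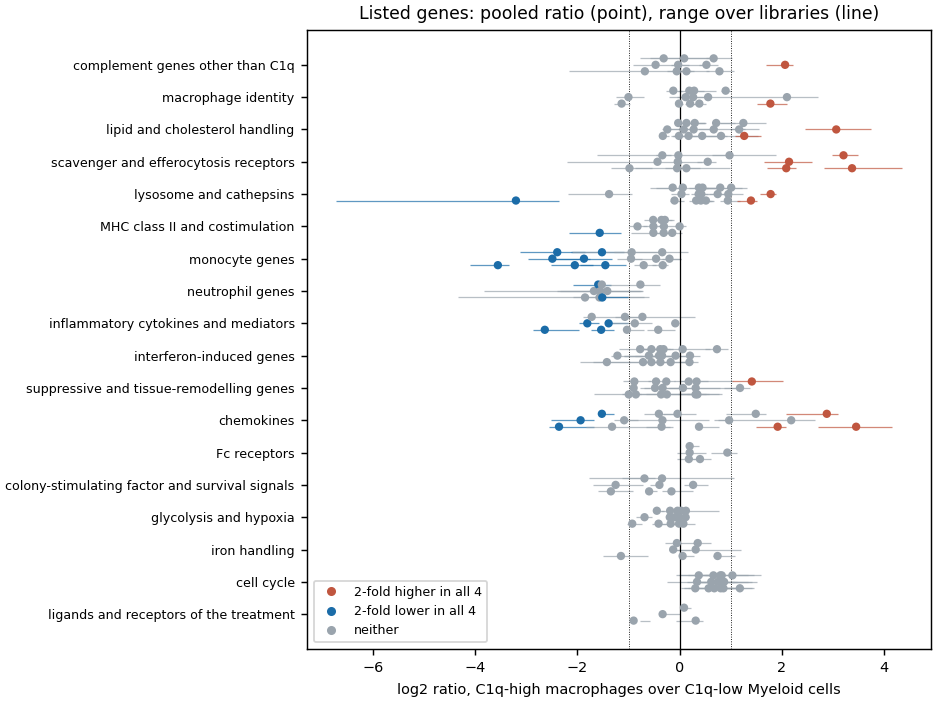
Log2 ratio of summed CPM, C1q-high macrophages over C1q-low Myeloid cells (x axis), for the genes of 18 lists that passed the filter (rows); a point is the value pooled over libraries, a line the range over the 4 libraries, and dotted lines mark 2-fold. Red genes (called higher) sit mostly in the scavenger receptor, chemokine, lipid and lysosome lists, and blue genes (called lower) in the monocyte, inflammatory and chemokine lists.

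Chemokines were called in both directions. Of 16 tested genes, 3 were called higher and 3 lower, and the median log2 ratio was -0.190. The 3 higher genes, *Ccl8*, *Ccl12* and *Ccl7*, encode monocyte chemoattractant proteins and lie with *Ccl2* in a cluster on chromosome 11, at chr11:82035571-82037453 (*Ccl2*), chr11:82045712-82047525 (*Ccl7*), chr11:82101845-82103400 (*Ccl12*) and chr11:82115185-82116799 (*Ccl8*), all on the plus strand. *Ccl8* had 1350, 1762, 5268 and 2521 CPM in the C1q-high macrophages of M1, M2, M5 and M6, and 80.44, 268, 479.2 and 141.2 CPM in C1q-low cells. The groups did not overlap, as for 12.6% of all genes, and the ratio was 6.55- to 17.7-fold within libraries. *Ccl12* had 1428, 1128, 753.7 and 708 CPM against 166.6, 178.5, 177.6 and 81.69 CPM, a ratio of 4.23- to 8.57-fold. *Ccl7* had 2258, 1623, 1459 and 1301 CPM against 530.7, 574.6, 493.2 and 318.6 CPM, or 2.82- to 4.25-fold. For both genes M1 was the highest library of C1q-high cells and M6 the lowest, whereas *Ccl8* peaked in M5.

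*Ccl2*, the main ligand of the monocyte receptor CCR2, had 2570, 2329, 1427 and 1693 CPM in C1q-high macrophages and 1318, 1353, 890.3 and 868.5 CPM in C1q-low cells. It was higher in each library, by 1.60- to 1.95-fold, under the limit of 2-fold. Cells labelled Stroma had 2185 CPM of *Ccl2*, but 8.361 CPM of *Ccl8* and 1.751 CPM of *Ccl12*. After thinning, 60.06% of C1q-high macrophages held a *Ccl8* UMI, against 15.04% of C1q-low cells and 6.069% of NK cells, and for *Ccl12* the shares were 49.23%, 11.71% and 2.252%.

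**Figure D4:**
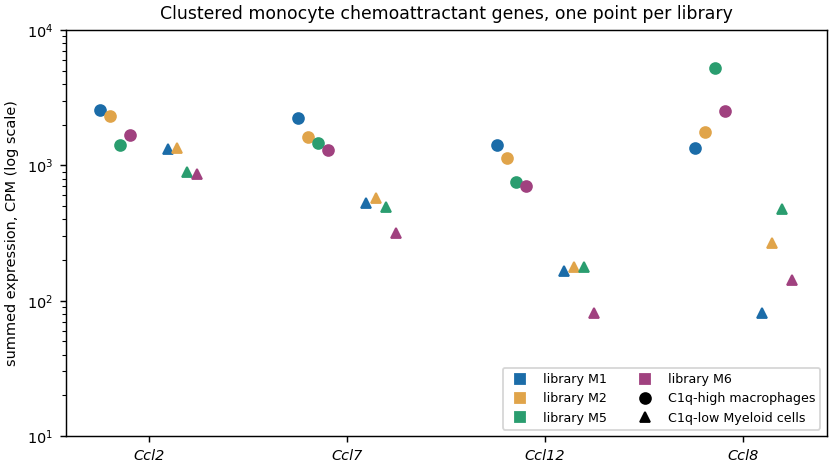
Summed expression in CPM on a log scale (y axis) of *Ccl2*, *Ccl7*, *Ccl12* and *Ccl8* (x axis) in C1q-high macrophages (circles) and C1q-low Myeloid cells (triangles), with 1 point per library. The groups of 4 do not overlap for any of the 4 genes, as for 12.6% of all genes tested, with the smallest gap for *Ccl2* (1427 against 1353 CPM) and wider ones for *Ccl8* (1350 against 479.2 CPM) and *Ccl12* (708 against 178.5 CPM).

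The 250 bases before the start sites of *Ccl12* (chr11:82101595-82101844) and *Ccl8* (chr11:82114935-82115184), plus strand, were read from the same RefSeq table, with the same motif in capitals.

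Ccl12: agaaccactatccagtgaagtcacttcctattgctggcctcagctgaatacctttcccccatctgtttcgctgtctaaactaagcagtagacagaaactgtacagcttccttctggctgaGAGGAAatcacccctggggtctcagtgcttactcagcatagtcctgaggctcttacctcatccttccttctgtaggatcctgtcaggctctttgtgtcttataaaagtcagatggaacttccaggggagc

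Ccl8: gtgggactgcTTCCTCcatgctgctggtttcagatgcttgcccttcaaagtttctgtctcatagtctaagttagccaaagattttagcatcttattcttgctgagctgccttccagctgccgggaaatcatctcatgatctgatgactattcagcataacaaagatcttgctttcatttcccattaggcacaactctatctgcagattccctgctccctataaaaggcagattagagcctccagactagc

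GAGGAA occurred once in each. TGANTCA was not found, and TGCTGA occurred once in *Ccl12* and 2 times in *Ccl8*. *Ccl2* and *Ccl7* are named only.

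The 3 chemokine genes called lower were the neutrophil attractants *Cxcl2* and *Cxcl3* and, named only to complete the count, *Ccl24*. *Cxcl2* had 1861, 2370, 2965 and 3966 CPM in the C1q-high macrophages of M1, M2, M5 and M6, against 4566, 6059, 8199 and 10250 CPM in C1q-low cells. The groups did not overlap, as for 9.72% of all genes, and the C1q-high cells were 2.45- to 2.76-fold lower within libraries. *Cxcl3* was 3.19- to 5.91-fold lower. The chemokine gene *Ccl4* was not called, with 903.6 to 1361 CPM in C1q-high macrophages.

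Scavenger and efferocytosis receptors gave 4 higher and no lower genes of 13 tested, with a median log2 ratio of 0.131. *Folr2*, a folate receptor of tissue macrophages, had 122.6, 107.7, 163.5 and 97.14 CPM in the C1q-high macrophages of M1, M2, M5 and M6, against 13.53, 10.34, 19.83 and 7.742 CPM in C1q-low cells, 7.90- to 11.2-fold more. *Mrc1*, the mannose receptor CD206, had 291.8, 225.6, 263.5 and 136.4 CPM against 59.39, 53.96, 67.38 and 41.18 CPM. *Stab1* (stabilin 1, a scavenger receptor) was 3.12- to 6.03-fold higher. *Gas6*, the ligand that bridges dying cells to the AXL and MERTK receptors, had 39.71, 19.44, 32.37 and 19.64 CPM against 1.253, 0, 3.685 and 1.683 CPM. The groups did not overlap for *Folr2*, *Mrc1* and *Gas6*, as for 12.6% of all genes, and *Gas6* passed the filter only through the C1q-high cells. The class A scavenger receptor *Msr1* was not called, with 399.9 to 522.3 CPM in C1q-high cells and 302.3 CPM in C1q-low cells over all libraries. In the cells without lymphocyte UMIs, *Folr2* had 168.1 against 10.04 CPM and *Mrc1* 327.4 against 58.18 CPM.

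Of 17 tested genes of lipid and cholesterol handling, 2 were called higher and none lower, with a median log2 ratio of 0.294. *Ch25h*, which makes 25-hydroxycholesterol, had 285.2, 213.8, 193.2 and 191.3 CPM in C1q-high macrophages and 20.55, 38.07, 28.6 and 21.21 CPM in C1q-low cells, 5.50- to 13.3-fold more. *Trem2*, a lipid-sensing receptor, had 240.2, 254.9, 229.5 and 235.5 CPM against 79.44, 84.47, 106.3 and 110.6 CPM. Its level varied little among libraries of C1q-high cells, and the ratio was 2.12- to 2.999-fold. The lysosomal cholesterol carrier *Npc2* and the lipid droplet gene *Plin2* were called in neither direction, with 1460 and 347.7 CPM in C1q-high and 1475 and 411.6 CPM in C1q-low cells.

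The lysosome list gave 2 higher genes and 1 lower gene of 20. *Lgmn*, the lysosomal protease legumain, had 1276, 1247, 1588 and 1037 CPM in the C1q-high macrophages of M1, M2, M5 and M6 against 347.1, 420.6, 456.4 and 303.4 CPM in C1q-low cells, 2.96- to 3.67-fold more. *Grn* (progranulin) was 2.18- to 2.87-fold higher. It was no longer called without the cells that held lymphocyte UMIs, where it had 1061 against 355.7 CPM. *Ctsk* (cathepsin K) was lower, with 1.257, 1.593, 11.23 and 83.96 CPM against 238.3, 16.39, 110.5 and 435.1 CPM, but 307 of its 356 UMIs in C1q-high macrophages came from 5 cells. The cathepsins *Ctsb*, *Ctsc*, *Ctsl* and *Ctss* were in neither class, with *Ctsb* at 2279 against 1178 CPM.

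Among 14 genes of macrophage identity only *Adgre1* was called, 2.85- to 4.29-fold higher. *Csf1r*, the receptor for colony-stimulating factor 1, was not called, with 162.9 CPM in C1q-high and 135.5 CPM in C1q-low cells. *Cd14*, the coreceptor for lipopolysaccharide, had 844.9 against 1858 CPM, which reached 2-fold lower in some libraries only. Of 11 tested complement genes other than C1q, *C4b*, the complement protein that C1 cleaves, was called higher: it had 84.69, 90.82, 109 and 83.96 CPM against 17.54, 27.48, 24.39 and 17.73 CPM. *C3*, *Cfp* (properdin) and the receptor genes *C3ar1* and *C5ar1* were not called. *Timp2*, an inhibitor of matrix metalloproteinases, was the 1 gene called of 18 on the list of suppressive and tissue-remodelling genes, 2.04- to 4.04-fold higher.

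Of the 18 listed genes called lower, 11 were on the monocyte or the inflammatory list. Of 14 monocyte genes 7 were called lower and none higher, beside 0.759% of all genes called lower, with a median log2 ratio of -1.203. *Ly6c2* had 138.7, 138.6, 261.6 and 187 CPM in the C1q-high macrophages of M1, M2, M5 and M6 and 450.6, 612.2, 671.3 and 397.7 CPM in C1q-low cells. *Thbs1* (thrombospondin 1) had 60.31, 96.88, 63.08 and 111.7 CPM against 477.9, 648.8, 487.6 and 377.2 CPM, 3.36- to 7.81-fold less. Neither pair of groups overlapped, as for 9.72% of all genes, and NK cells had 213.5 CPM of *Ly6c2*. *Ccr2*, the monocyte receptor for CCL2, was not called, with 199.7 against 251.6 CPM, below the 428.8 CPM of NK cells. *Plac8* was called only without the cells that held lymphocyte UMIs. Of 9 neutrophil genes 2 were called lower, *Il1r2* and *Cxcr2*. *S100a9* was not, with 430.4 against 1265 CPM.

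Of 11 inflammatory cytokines and mediators, 4 were called lower and none higher, beside 0.759% of all genes called lower. *Il1b* (interleukin 1β) had 1488, 1605, 1564 and 2382 CPM in C1q-high macrophages and 4473, 6022, 6156 and 7079 CPM in C1q-low cells. The groups did not overlap, as for 9.72% of all genes, and the C1q-high cells were 2.97- to 3.93-fold lower within libraries. *Ptgs2* (the prostaglandin synthase COX-2) was 2.43- to 3.32-fold lower, and *Il6* had 2.513, 8.286, 12.88 and 16.68 CPM against 24.81, 35.55, 94.05 and 81.91 CPM. *Tnf* was not called, with 252 against 418.4 CPM. The direction of these genes was the same without lymphocyte UMIs, with *Il1b* at 1820 against 8535 CPM, and 7 of 12 genes were then called lower (113 of all 7505 tested). The 6 neutrophil markers moved with these genes in the pooled sums: they summed to 682.8 CPM in C1q-high and 1914 CPM in C1q-low cells, and to 1200 and 3487 CPM without lymphocyte UMIs. From the shallow to the deep class of C1q-high macrophages the sums were 4299, 710.3 and 446.1 CPM, so the shallow class stood above the C1q-low cells. In that class 13.94% of cells held 2 or more UMIs of these markers. The part of the neutrophil markers in the lower inflammatory and monocyte genes was not tested.

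No gene was called on the lists for interferon-induced genes (18 tested, median log2 ratio -0.378), glycolysis and hypoxia (15, -0.093), iron handling (7, 0.057), Fc receptors (5, 0.195), colony-stimulating factor and survival signals (8, -0.497) or the cell cycle (16, 0.771). Without the cells that held lymphocyte UMIs, *Gbp5* of the interferon list (44.91 against 156.1 CPM), *Csf2rb* of the colony-stimulating factor list (107.3 against 348.9) and *Trf* of the iron list (50 against 171.2) were called lower, and the cell cycle median was 1.215. The interferon-γ-induced chemokine *Cxcl9* had 660.5 CPM in C1q-high and 398.2 CPM in C1q-low cells, 1.41- to 1.91-fold more within libraries, whereas *Cxcl10* had 593.1 and 870.6 CPM. Cell cycle genes were at 1.75-fold (*Stmn1*), 1.83-fold (*Ube2c*) and 2.04-fold (*Birc5*) over all libraries but under 2-fold in some library each. A UMI of *Top2a*, of DNA replication and mitosis, was found in 13% of thinned C1q-high macrophages and 3.744% of C1q-low cells, beside 9.317% of NK cells. Without lymphocyte UMIs its level was 104.2 against 40.68 CPM.

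Outside the lists, the genes with the largest smallest ratio over libraries and at least 50 CPM were *Siglec1* (the sialic acid receptor CD169, 50.79 against 5.672 CPM), *Ms4a7* (472.5 against 96.95), *Pmp22* (101.5 against 22.55), *Cd72* (169.1 against 36.82), *Sash1*, *Slamf9*, *Selenop* (the selenium transport protein), *Gatm* (the first enzyme of creatine synthesis, 560.2 against 122.2), *Rnase4* and *P2ry6*. The ratio of *Siglec1* was 5.72- to 9.60-fold within libraries, and that of *Ms4a7* 3.90- to 5.56-fold. At the lower end stood *Dmkn*, *Inhba* (the activin A chain, 179.9 against 806.4 CPM), *Mcemp1*, *F10* (coagulation factor X, 43.57 against 215.7), *Mefv*, *Gpr141*, *Ifitm6*, *Slc7a11* (the cystine transporter), *Clec4e* (the receptor Mincle) and *Trem1*. Without the cells that held lymphocyte UMIs, *P2ry6* (2.595-fold higher), *Slc7a11* (3.81-fold lower) and *Trem1* (3.745-fold lower) differed by about as much or more over all libraries, but their smallest ratios over libraries, 1.762-, 1.929- and 1.94-fold, were under the limit of 2-fold. *Inhba* was 3.45- to 5.04-fold lower. *Siglec1* and *Dmkn* (6.349 against 61.95 CPM) passed the filter only through the group where they were high.

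Cells labelled DC, the dendritic cells, numbered 556. Against them 374 of 7799 genes (4.8%) were called higher in C1q-high macrophages and 259 (3.32%) lower. Of 217 tested list genes other than the C1q chains 82 were called higher (37.8%) and 23 lower (10.6%). These lists were chosen with earlier results of these data known, so the larger shares are no result of their own. MHC class II and costimulation was the list with most lower genes, 11 of 13, with a median log2 ratio of -1.905. *H2-Ab1*, an MHC class II chain, had 841.6, 1337, 1393 and 1264 CPM in the C1q-high macrophages of M1, M2, M5 and M6 and 4507 CPM in dendritic cells over all libraries, and *Cd74*, the invariant chain, 3937 against 10760 CPM. Of 11 such genes tested against C1q-low Myeloid cells, only the costimulatory ligand *Cd80* was called, lower, with 17.03 against 52.29 CPM. Of 5 Fc receptor genes 4 were higher than in dendritic cells, among them *Fcgr3* (504.8 against 40.2 CPM) and *Fcgr4* (267.4 against 17.28), as were 10 of 14 identity genes and 11 of 17 chemokine genes.

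Within the C1q-high macrophages, the highest tertile of each library by C1q share was compared with the lowest, 234 cells each. The highest tertile had a median depth of 15827 UMIs and 35.04% of its cells held lymphocyte UMIs, and the lowest tertile 7528 UMIs and 42.31%. *S100a8* and *S100a9* summed to 424.8 and 1014 CPM. Of 7822 genes 39 (0.499%) were called higher and 32 (0.409%) lower. The 39 include the 3 C1q chains, which set the tertiles, and the calls share cells with those above. Without the cells that held lymphocyte UMIs 71 genes were higher and 148 lower, and with means over cells 44 and 139. *Ccl8* had 4573 CPM in the highest and 970.1 CPM in the lowest tertile, *Ccl12* 1768 and 385.7 CPM, *Folr2* 227.4 and 46.27 CPM, *Stab1* 192.4 and 64.77 CPM, *Adgre1* 315.7 and 108.8 CPM, *C4b* 150.5 and 55.03 CPM, and *Cxcl9* 1232 and 265.4 CPM, and all were called. *Apoe* (2203 and 1165 CPM), *Mrc1* (350.1 and 148.3) and *Trem2* (365.2 and 147.8) were not. *Il1b* had 651.6 and 2718 CPM and *Thbs1* 27.52 and 110.8 CPM, both called lower. *Arg1*, the arginine-degrading enzyme, was not called, with 790.5 and 496 CPM.

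Pairs of macrophage transcripts, some of them marks of unlike states (*Arg1* and *Nos2*) and some of like ones (*Trem2* and *Gpnmb*), were counted within cells. Of thinned NK cells, which should lack macrophage transcripts, 2.015% held *Cxcl9*, 2.3% *Arg1*, 0.2371% *Nos2*, 0.2608% *Mrc1* and 7.61% *H2-Ab1*. NK cells held *Ly6c2* (19.61%) and *Ccr2* (53.08%) in larger shares than the C1q-high macrophages (18.27% and 22.45%), and give no background share for these genes. In 646 thinned cells, *Cxcl9* was found in 47.37% and *Spp1* (osteopontin) in 59.75%, and both in 28.17% (24.73–31.81%), beside a product of the single shares of 28.3%. *Spp1* is no mark of these cells here, since 65.22% of thinned NK cells held it and cells labelled Stroma had 5448 CPM of it against 1186 CPM. *Arg1* was found in 38.7% and *Nos2* (inducible nitric oxide synthase) in 14.55%, and both in 8.978% (6.888–11.45%), beside a product of 5.631%. Of cells with *Arg1* 23.2% held *Nos2*, and of cells without it 9.091%. The interval of this pair lay above its product. *Mrc1* and *H2-Ab1* were found together in 13.78% (11.21–16.68%), below a product of 17.02%, a gap of -3.25 percentage points that was -0.50 with cells thinned to 4000 UMIs. For the other pairs the interval held the product: *Cxcl9* with *Arg1* (15.48% and 18.33%), *Mrc1* with *Arg1* (12.85% and 11.08%), and, with 1 gene that lacks a background share here, *Ly6c2* with *H2-Ab1* (13% and 10.86%) and *Ccr2* with *Mrc1* (6.502% and 6.428%). *Gpnmb* was found in 7 cells, 4 of them with *Trem2*. The cells come from 4 libraries of unlike levels, and doublets or free RNA can put both transcripts behind 1 barcode, whose part was not tested.

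Levels in C1q-high macrophages varied among the libraries. Of 166 list genes with at least 50 CPM, the highest library was under 2-fold above the lowest for 133, 2- to 4-fold for 27 and 4-fold or more for 6, with a median of 1.52. *Fabp5*, a fatty acid binding protein, had 170.1, 364.9, 1347 and 790.9 CPM in M1, M2, M5 and M6, and C1q-low cells 154.6, 457.9, 848.6 and 520.5 CPM. *Ctsl* (cathepsin L) had 1189, 1561, 3637 and 3121 CPM, with 1433, 2328, 2474 and 2387 CPM in C1q-low cells. In the cells without lymphocyte UMIs *Fabp5* had 226.7, 413.6, 1830 and 375.8 CPM and *Ctsl* 1664, 2112, 5477 and 2048 CPM, with M6 below M2 for both. *C3* had 56.79, 101.7, 301.9 and 204 CPM and *Fth1*, the ferritin heavy chain, 12310, 14940, 21810 and 24720 CPM. Over all C1q-high cells, M1 was the lowest in these genes and M5 or M6 the highest, and M1 was lowest in C1q-low cells as well. *Nos2* (25.88, 96.88, 194.5 and 260.2 CPM), *Ccl5* (545.3, 516.6, 1503 and 1189 CPM) and the fractalkine receptor *Cx3cr1* (77.9, 49.71, 8.587 and 10.76 CPM) were chosen after their values were seen. *Ccl5* was higher in NK cells, at 3096 CPM, and T cell markers summed to 819.5, 691.8, 1062 and 1056 CPM in the C1q-high macrophages. In those without lymphocyte UMIs *Ccl5* had 227.7, 308.7, 776 and 436.9 CPM. *Cx3cr1* ran the other way in C1q-high cells and stood at 11.03, 10.84, 8.949 and 5.274 CPM in C1q-low cells. Whether treatment, tumor or handling sets these differences cannot be told apart.

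**Figure D5:**
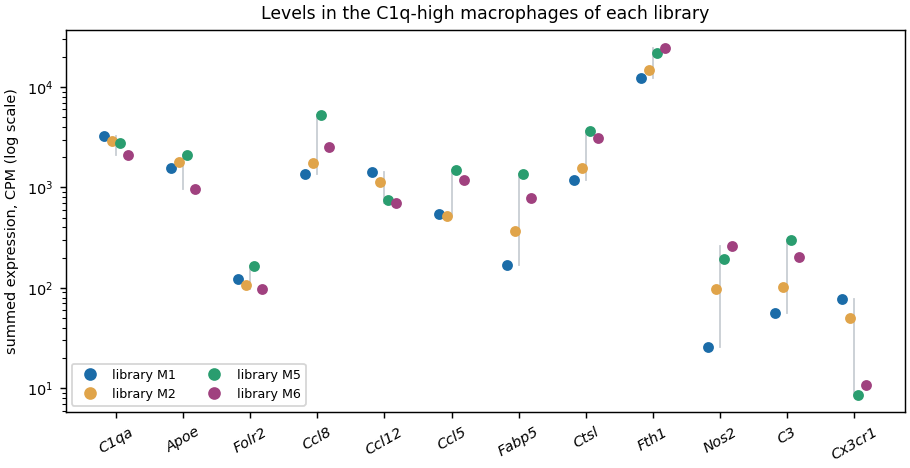
Summed expression in CPM on a log scale (y axis) of 12 genes (x axis) in the C1q-high macrophages, with 1 point per library and a grey line from the lowest to the highest. *C1qa* ranged from 2109 to 3236 CPM, whereas *Fabp5* ranged from 170.1 to 1347, *Nos2* from 25.88 to 260.2 and *Cx3cr1* from 8.587 to 77.9 CPM.

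The bispecific engages PD-1 and GITR on T cells, and the genes of these receptors and their ligands were a list of their own, on which no gene was called. *Cd274* (PD-L1) had 132.7, 216.7, 314.4 and 338.2 CPM in the C1q-high macrophages of M1, M2, M5 and M6, and 215.5, 326.5, 538.5 and 582 CPM in C1q-low cells. Within each library the C1q-high cells were lower, by 1.504- to 1.719-fold, under the limit. After thinning, 33.13% of C1q-high macrophages held a *Cd274* UMI, against 55.07% of C1q-low cells and 11.93% of NK cells. These shares were pooled over libraries. M5 and M6, where *Cd274* was highest, held 458 and 624 of the C1q-low cells but 146 and 141 of the C1q-high macrophages. The part of this mix in the gap between the shares was not tested. *Pdcd1* (PD-1) and *Tnfrsf18* (GITR) had 70.63 and 93.14 CPM over all C1q-high macrophages, but 3.672 and 8.757 CPM in those without lymphocyte UMIs. *Tnfsf18*, the ligand of GITR, had 2 UMIs in all 706 cells.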

How the data were processed

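Tumors were dissociated, CD45+ cells were enriched on beads, and single-cell libraries were made with 10x Genomics 3′ V3 chemistry. Per the labels and the study's methods, the authors counted UMIs with Cell Ranger 3.0.2 on mm10 (GRCm38), kept cells above a minimum UMI count and labelled each cell by its highest correlation with ImmGen profiles; removal of doublets or of free RNA is not given in the sources used here. They deposited raw counts of 31053 genes in 33961 cells, not normalized, with each cell's total, library and label. Each cell held at least 1220 UMIs, and the libraries held from 158337797 to 315577167 UMIs.

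The values reported here were computed from these counts by scripts written for this work (Python 3.11.15, numpy 2.4.6, scipy 1.17.1, pandas 2.3.3). The cells and the gene lists were chosen with earlier results of these data known. Members were selected on C1q UMIs. Counts were summed per library and group and scaled to CPM, and log2 ratios used a pseudocount of 1 CPM, which understates the change of low genes. Genes averaging at least 10 CPM were called when at least 2-fold apart in the same direction in all 4 libraries. On simulated counts the script recovered genes that had been changed by more than the 2-fold limit. The simulated counts held counting error only, so the check does not bear on calls near the limit. Cells are not replicates and the library labels M1, M2, M5 and M6 match no sample label, so no p-value is given. For shares of cells, each cell was thinned to 2000 UMIs, and the cells of all libraries were pooled. No doublet caller was run; an alternative left out cells with 2 or more lymphocyte UMIs. Named genes were the C1q genes, *Apoe*, the 5 highest members and 3 largest ratios of each list, the 10 highest and 10 lowest genes outside the lists with at least 50 CPM, and 8 pairs for co-detection. 1 listed gene, *Cxcl11*, is absent from the table. Positions are from GENCODE M21 and upstream sequences from RefSeq (GRCm38.p6), where 4 of the genes needed here, *C1qb*, *C1qc*, *Ccl12* and *Ccl8*, matched by symbol. Values of some genes that the naming rule covers are not reported here.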

Additional observations from a re-analysis of the deposited data

Results flagged for a closer look

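C1q transcripts also occurred outside the label Myeloid: 340 cells under other labels reached the same C1q limit and were not counted as members (1.087% of 31281 cells, exact 95% interval 0.975–1.208%). Of these, 129 were labelled ILC, 69 T cell EFF, 59 NK cells, 41 T cell MEM, 16 NKT and 13 DC. They stayed in the values given for their labels above, among them the 556 dendritic cells. By share of their label they ran from 0.051% of cells labelled Stroma to 3.478% of T cell MEM. The 317 cells under T, NK, NKT and ILC labels had 3373 CPM of *Lyz2*, 902 of *Apoe*, 82.8 of *Adgre1* and 111.5 of *Mrc1*, beside 7515, 1578, 195.1 and 229 CPM in C1q-high macrophages, together with 589.4 CPM of *Cd3g* and 147.3 CPM of *Ncr1*. The median depth of the 340 cells was 7823 UMIs. The part of doublets in them was not tested.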

How the results depend on the processing

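No paired analysis was possible because the libraries carry no sample or replicate number that would pair treatment groups (cell groups were compared within each library), and for the same reason the replicate block, DESeq2, the fit without a filter and the fits without 1 replicate of a treatment comparison were not run. The share of all cells moved to 2.376% with a C1q limit of 0.0005 and 1.726% with 0.002, and that of Myeloid cells to 30.11% and 21.87%, and to 22.85% without cells holding lymphocyte UMIs. Leaving out 1 library at a time gave 1.998–2.141% of all cells and 23.47–30.54% of Myeloid cells (30.54% without M6). Against C1q-low cells, 29 genes were higher and 38 lower with a pseudocount of 10 CPM, 78 higher with a filter at 1 CPM, 88 and 118 with means over cells, 113 lower without lymphocyte UMIs, and 91 and 95 without cells over 20000 UMIs, an alternative chosen after seeing the data. The filter at 1 CPM tested 12021 genes here, against 7771 in the main setting, where 51 were higher. Leaving out 1 library gave 52–65 higher and 64–93 lower genes (93 lower without M6). Against dendritic cells, 397 were lower with a filter at 1 CPM, and leaving out 1 library gave 405–456 higher and 274–303 lower. Between tertiles, 51 genes were lower with a C1q limit of 0.0005, 71 higher and 148 lower without lymphocyte UMIs, 17 lower with a pseudocount of 10 CPM, 68 lower with a filter at 1 CPM, 139 lower with means over cells and 151 lower without cells over 20000 UMIs. Leaving out 1 library gave 44–83 higher and 45–76 lower: 69 lower without M1, 64 lower without M2, and 83 higher and 76 lower without M6. The cause of these moves was not tested. The changed pseudocount, the filter at 1 CPM and the means over cells left out no cell or library. A pseudocount of 10 CPM brings every ratio nearer to no change, and leaving out 1 library gives each gene fewer libraries to pass. The filter at 1 CPM tests more genes in every comparison, so its counts stand beside larger sets. All 273 recomputed log2 ratios of 21 genes against C1q-low cells kept their sign, 53 lay outside the range over libraries and 8 moved by over 1.5 times: *Folr2* from 3.204 to 2.560 and *Gas6* from 3.371 to 1.690 with a pseudocount of 10 CPM, *Folr2* to 3.937 and *Ccl3* from -1.323 to -1.946 without lymphocyte UMIs, *Ccl3* to -2.140 with means over cells, and *Folr2* to 3.841, *Gas6* to 3.983 and *Thbs1* from -2.490 to -3.264 without cells over 20000 UMIs. The main pooled ratios of *Ccl2* (0.967), *Cxcl2* (-1.522) and *Cd274* (-0.901) already lay outside their ranges over libraries. These genes therefore count among the 53 also where a setting left the ratio unchanged. The 21 genes were a set listed for this check, many of them called above in these same data. The filter at 1 CPM left all their ratios as they were, and a pseudocount of 10 CPM cannot change the sign of a ratio. The kept signs of these 2 settings were therefore fixed in advance. Of the listed genes 44 were found in most cells thinned to 2000 UMIs, 86 in most cells thinned to 4000 and 128 in most unthinned cells, so these shares are limited by depth. Of 8 pairs 5 were found together more often than the product, also at 4000 UMIs, but at 2000 UMIs only *Arg1* with *Nos2* had an interval above its product.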
